A study of Mus musculus with 8 samples.

Results

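The open chromatin of 4 genes, Runx1, Runx2, Runx3 and Cbfb, was described in bone marrow stromal cells of the mouse. They were chosen by name, as the whole Runx family with its shared partner, and are 4 of 22225 protein-coding genes of the GENCODE vM1 annotation. A locus was taken as the gene with 50 kb on each side, and the 4 loci held 172 of the 164103 peaks in all lists. The study sorted mesenchymal stem cells of the marrow into populations and profiled them by ATAC-seq, a method that lets the transposase Tn5 place adapters in accessible DNA. All 7 libraries, titled ATAC1 to ATAC7, came from wild type C57BL/6J animals aged 6 weeks, as did the 1 Input library that was the control of every list. Neither the sorted population nor the number of pooled animals is given for a title, so libraries are named by title, and no treatment was applied. The labels give the strain as C57BL/6J and the methods of the study as C57BL/6JJcl. Cells were sorted as negative for antibodies to Ptprc (CD45) and Pecam1 (CD31). Each title has 1 library, so the values compare single libraries, no test was possible and nothing has a replicate check.

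Runx proteins are transcription factors that bind DNA through a runt domain, and Cbfb is the partner that does not bind DNA itself but raises their affinity for it. Runx1 is known for the making of blood stem cells, Runx2 for the commitment of mesenchymal cells to osteoblasts, and Runx3 for T lymphocytes, sensory neurons and, with Runx2, cartilage. Each Runx gene has a distal promoter, P1, and a proximal promoter, P2, and their transcripts encode proteins with different N termini. Cbfb has a single annotated start.

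The lists were of unequal length, from 15188 peaks in ATAC7 to 32280 in ATAC2, and the 3 longest were those of ATAC2, ATAC5 and ATAC6. The median peak held 111 to 169 reads, and the total depth of the libraries is not given by the lists. Of 12 stromal marker genes, 1 to 7 had a peak at a start site in a library, with 47 to 1343 reads summed over them, and Col3a1, Lepr, Prrx1, Vcam1 and Dcn had none in any, while Pdgfra and Pdgfrb had one in 5 libraries and Col1a1 and Kitl in 6. Of 12 haematopoietic markers, 2 to 6 had one, with 102 to 611 reads, and those with none in any included Cd3e, Csf1r, Mpo, Elane and Gata1. Of 8 endothelial markers, 0 to 3 had one, with 0 to 233 reads, and Cdh5, Tek, Emcn, Sox17 and Tie1 had none in any. Pecam1 had one in ATAC2 and ATAC5, Kdr in ATAC5, and Erg in ATAC5 and ATAC6. These shares stand beside 43.0% of all protein-coding genes that had a start-site peak in no library and 37.1% that had one in all 7. The part of other cell types in the results was not tested.

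In the build mm9, Runx1 lay on the minus strand at chr16:92601712-92826311, with 129 kb between P1 and P2. Runx2 lay on the minus strand at chr17:44632936-44951746, with 78.1 kb between them, and Runx3 on the plus strand at chr4:134676567-134733905, with 31.8 kb. Cbfb lay on the plus strand at chr8:107694574-107741886. For 6 of the 7 start-site groups, the 120 bases before the first annotated start are printed from the mm9 genome in the direction of transcription, since they show how the promoters differ in letters. Capitals mark each CG.
Runx1 P1, chr16:92826312-92826431, minus: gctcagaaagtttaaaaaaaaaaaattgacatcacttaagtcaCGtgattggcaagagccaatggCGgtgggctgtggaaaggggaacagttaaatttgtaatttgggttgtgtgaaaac
Runx2 P1, chr17:44951747-44951866, minus: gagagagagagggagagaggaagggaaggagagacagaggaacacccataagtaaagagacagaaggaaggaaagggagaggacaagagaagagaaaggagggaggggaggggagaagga
Runx3 P1, chr4:134676447-134676566, plus: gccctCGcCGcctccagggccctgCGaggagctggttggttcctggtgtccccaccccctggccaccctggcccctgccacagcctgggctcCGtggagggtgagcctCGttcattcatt
Runx1 P2, chr16:92697574-92697693, minus: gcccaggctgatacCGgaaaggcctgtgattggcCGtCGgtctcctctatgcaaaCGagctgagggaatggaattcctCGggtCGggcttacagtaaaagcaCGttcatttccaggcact
Runx3 P2, chr4:134708291-134708410, plus: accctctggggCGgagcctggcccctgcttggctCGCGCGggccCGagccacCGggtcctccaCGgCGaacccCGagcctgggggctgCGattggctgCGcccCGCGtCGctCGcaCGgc
Cbfb start, chr8:107694454-107694573, plus: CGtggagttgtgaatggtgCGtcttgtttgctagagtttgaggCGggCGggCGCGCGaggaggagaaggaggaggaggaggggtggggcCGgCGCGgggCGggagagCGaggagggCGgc

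The P1 and P2 promoters differed in CpG content. Over 500 bases on each side of the first start, the ratio of observed to expected CpG was 0.342 at Runx1 P1, 0.164 at Runx2 P1 and 0.361 at Runx3 P1. All were below the median of 0.411 over 28867 start-site groups, which are the annotated starts of a protein-coding gene joined where at most 2000 bases apart. At the P2 promoters it was 0.865 in Runx1, 0.909 in Runx2 and 0.949 in Runx3, and it was 0.928 at the start of Cbfb, all above the upper quartile of 0.728. Runx2 P1 had no CG in the 120 bases printed, and Runx3 P2 had 16.

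The 3 P1 promoters shared a tandem pair of Runx motifs with the same spacing. The motif TGTGGT, with ACCACA as its reverse complement, is the core that Runx proteins bind. A tandem pair, ACCACANNACCACA on either strand, was sought within 250 bases of the first start of each group. It was found in 7 of 28867 groups (0.0242%), and the P1 promoters of Runx1, Runx2 and Runx3 were 3 of them. The others belonged to Card6, Fbxw21, Nlrp4b and Olfr24. The pairs of the Runx genes and their flanks are printed in the direction of transcription, with the motif copies in capitals, because the 3 P1 promoters have 18 bases in common here, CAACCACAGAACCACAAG.
Runx1 P1, chr16:92826270-92826299, minus: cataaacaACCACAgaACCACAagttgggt
Runx2 P1, chr17:44951532-44951561, minus: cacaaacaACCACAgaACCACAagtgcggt
Runx3 P1, chr4:134676418-134676447, plus: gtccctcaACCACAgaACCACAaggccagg
The motif pair began 20 bases past the first start in Runx1, 193 bases past it in Runx2 and 141 bases before it in Runx3. This stretch was covered by a peak in 7 libraries at Runx1, in 3 at Runx3 and in 0 at Runx2. Neither a P2 promoter nor the start of Cbfb held a single TGTGGT in the window, where 25.1% of all groups had at least 1 on either strand. A match of letters is a description and does not show that a protein binds there.

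**Figure D1:**
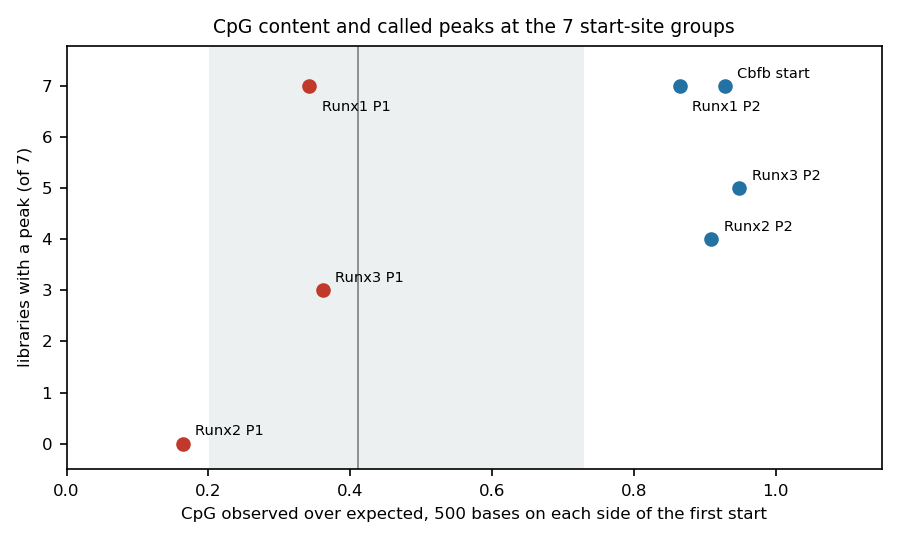
Number of libraries with a peak (vertical axis, of 7) against the observed over expected CpG ratio (horizontal axis) at each of the 7 start-site groups, with P1 in red and P2 and the start of Cbfb in blue. The grey band spans the lower to the upper quartile of all groups and the line is their median of 0.411. The 3 P1 promoters lie left of the line, with peaks in 7, 0 and 3 libraries, and the other groups lie right of the band, with peaks in 4 to 7.

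The promoters of Runx1 and Cbfb were open in every library, and those of Runx2 and Runx3 in some or none. A start-site group was counted as open when a peak had at least 1 base within 1000 bases of an annotated start. Runx1 P1, Runx1 P2 and the start of Cbfb had a peak in 7 of 7 libraries, Runx3 P2 in 5, Runx2 P2 in 4, Runx3 P1 in 3 and Runx2 P1 in 0. Of all 28871 groups, 28.7% had a peak in all 7 libraries and 53.6% in none, so neither an open nor a closed promoter was rare. By library, from ATAC1 to ATAC7, the share of groups with a peak was 39.2%, 40.2%, 34.3%, 34.4%, 42.5%, 41.3% and 33.1%. Among protein-coding genes, 37.1% had a start-site peak in all 7 libraries and 43.0% in none. A missing peak means only that none passed the limits of the authors in that list.

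**Figure D2:**
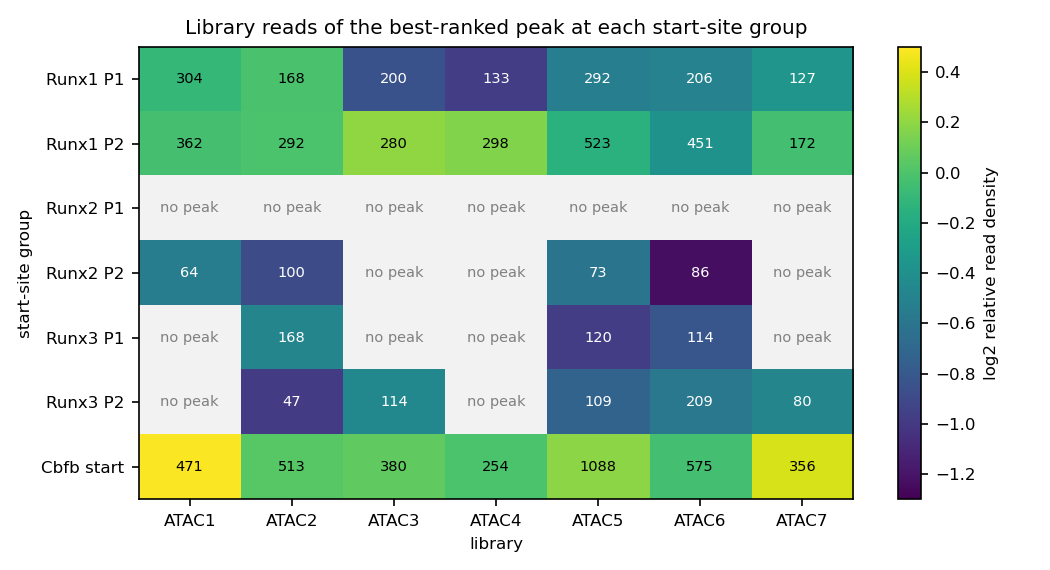
Library reads in the outer region of the best-ranked peak (number in each cell) at each start-site group (rows) in each library (columns). The colour is the log2 relative read density and grey cells had no peak. Runx1 P1, Runx1 P2 and Cbfb are filled in all 7 libraries, Runx2 P1 in none, and the cells of ATAC4 hold a peak only in these 3 filled rows.

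Runx1 P1, known as the main promoter of adult blood cells, had a peak in every library but varied more between libraries than Runx1 P2. In the order ATAC1 to ATAC7, the best-ranked peak held 304, 168, 200, 133, 292, 206 and 127 reads, against 20 to 46 Input reads. Reads follow the depth and the width of the called region. Values were therefore also taken per 1000 bases of that region and divided by the median of regions called in all 7 libraries. They were put on a log2 scale, here called relative density. The density still depends on the width of the region counted, which differed between libraries. At Runx1 P1 this width was 610, 394, 777, 586, 767, 512 and 376 bases from ATAC1 to ATAC7. The relative density of Runx1 P1 was highest in ATAC2 (-0.02) and ATAC1 (-0.10) and lowest in ATAC4 (-0.97) and ATAC3 (-0.85). The difference between the highest and the lowest library was 0.95 on the log2 scale, where the median over 8296 groups open in all libraries was 0.63 and the upper quartile 0.79. The counting intervals (95%, exact Poisson) ran from 143.6 to 195.4 reads in ATAC2 and from 111.4 to 157.6 in ATAC4. In the order of the lists, the peak was in the first 24.7% of ATAC1 and only in the first 88.1% of ATAC4. Of the 12 haematopoietic markers, 6 lacked a start-site peak throughout and 2 to 6 had one in a given library, Ptprc in ATAC1, ATAC3, ATAC5 and ATAC7, and their part in the values of Runx1 was not tested.

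Runx1 P2, the CpG-rich promoter that is active from early blood development on, was the more even of the pair. From ATAC1 to ATAC7 its best-ranked peak held 362, 292, 280, 298, 523, 451 and 172 reads, against 30 to 80 Input reads. The relative density ran from -0.38 in ATAC6 to 0.20 in ATAC3, a difference of 0.58. ATAC3 and ATAC4 were thus the highest at P2 and the lowest at P1. The part of region width in this contrast was not tested. Further peaks lay beside the P2 peak. A region 0.5 kb downstream of P2 was called in 6 libraries, all but ATAC3, with 115 to 267 reads, and one 1.3 kb upstream in ATAC1, ATAC2, ATAC4 and ATAC6 with 85 to 184.

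The start of Cbfb had the highest relative density of the 7 groups in 5 libraries, and only in ATAC3 and ATAC4 was Runx1 P2 above it. From ATAC1 to ATAC7 its best-ranked peak held 471, 513, 380, 254, 1088, 575 and 356 reads, against 61 to 187 Input reads. Its best-ranked peak lay within chr8:107694369-107694496 in ATAC1 to ATAC5. In ATAC6 and ATAC7 it lay within chr8:107694522-107694847, which shares no base with the first stretch. The relative density of Cbfb was between -0.04 in ATAC6 and 0.49 in ATAC1. At Runx1 P1 it was lower in every library, and the values were nearest in ATAC2 (0.03 at Cbfb against -0.02). The peak of Cbfb was in the first 10.9% of the ATAC5 list and the first 53.1% of the ATAC4 list.

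Runx2 P1, from which the bone-type isoform is transcribed, had no peak in any library. The nearest peak lay 36.6 to 37.0 kb away in each of the 7 lists, at the start of Supt3h, a gene for a subunit of transcription coactivator complexes that begins inside Runx2 on the opposite strand. Runx2 P2 had a peak in ATAC1 with 64 reads, in ATAC2 with 100, in ATAC5 with 73 and in ATAC6 with 86, against 17, 39, 16 and 42 Input reads. ATAC3, ATAC4 and ATAC7, which have the shorter lists, had none. The relative density at Runx2 P2 was -1.23 to -0.54, below that of Cbfb in each of the 4 libraries. The peaks of the libraries did not all overlap each other, and the antisense transcript Gm10497 starts here too, so the signal cannot be assigned to Runx2 alone. The same 4 libraries, and no others, had a peak at 350 of the 28871 groups (1.21%). When each list was shortened to its 15188 best-ranked peaks, Runx2 P2 had a peak in 0 libraries.

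Runx3 P1 had a peak in ATAC2 with 168 reads, in ATAC5 with 120 and in ATAC6 with 114, against 38, 36 and 28 Input reads. These are the 3 longest lists, and 483 groups (1.67%) had peaks in exactly these libraries. Gm16225, a noncoding transcript on the opposite strand, starts nearby, so the peak lies at both starts. With lists of equal length, only the peak of ATAC6 was left.

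Runx3 P2 had a peak in 5 libraries and in a rarer set. It held 47 reads in ATAC2, 114 in ATAC3, 109 in ATAC5, 209 in ATAC6 and 80 in ATAC7, against 18 to 57 Input reads, and ATAC1 and ATAC4 had none. Only 16 of 28871 groups (0.0554%) had peaks in exactly these 5 libraries. In ATAC1 the nearest peak to Runx3 P1 was 50618 bases away, and neither promoter of Runx3 was open in ATAC1 or in ATAC4. With lists of equal length, Runx3 P2 kept its peak in ATAC3, ATAC6 and ATAC7, and with a fold over Input of 5 or more in ATAC5 and ATAC6.

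The genes most alike in pattern were taken from the 8296 groups open in all libraries, by Pearson's r of relative density over the 7 libraries, as a description. For Runx1 P1 they were Fto (r = 0.966), Rpgrip1l (0.966) and Atp7a (0.963). For Runx1 P2 they were Ppp1r9b (0.975), Dpm1 (0.966) and Mocs3 (0.966), and for Cbfb 2510046G10Rik (0.971), Ccdc101 (0.971) and Rara (0.966). A peak near the starts of neighbouring genes counts for each of them, so named genes of equal r may share a peak. With 7 points that share their library and its scaling, 18, 37 and 15 groups had r over 0.9 to Runx1 P1, Runx1 P2 and Cbfb.

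Away from the promoters, the loci differed in where their peaks lay. The Runx1 locus held 61 peaks over the 7 lists, the Cbfb locus 49, the Runx2 locus 35 and the Runx3 locus 27. Of the peaks of Runx1, 26 were at its own starts and 33 in introns. Runx2 had 5 at its own starts, 19 in introns and 11 at the start of Supt3h. Runx3 had 8 at its starts, 3 in introns and 16 in the flanks, while of the peaks of Cbfb 10 were at its start, 1 in an intron and 30 at starts of neighbouring genes. The centre of 0 of the peaks lay in an exon away from a start site.

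**Figure D3:**
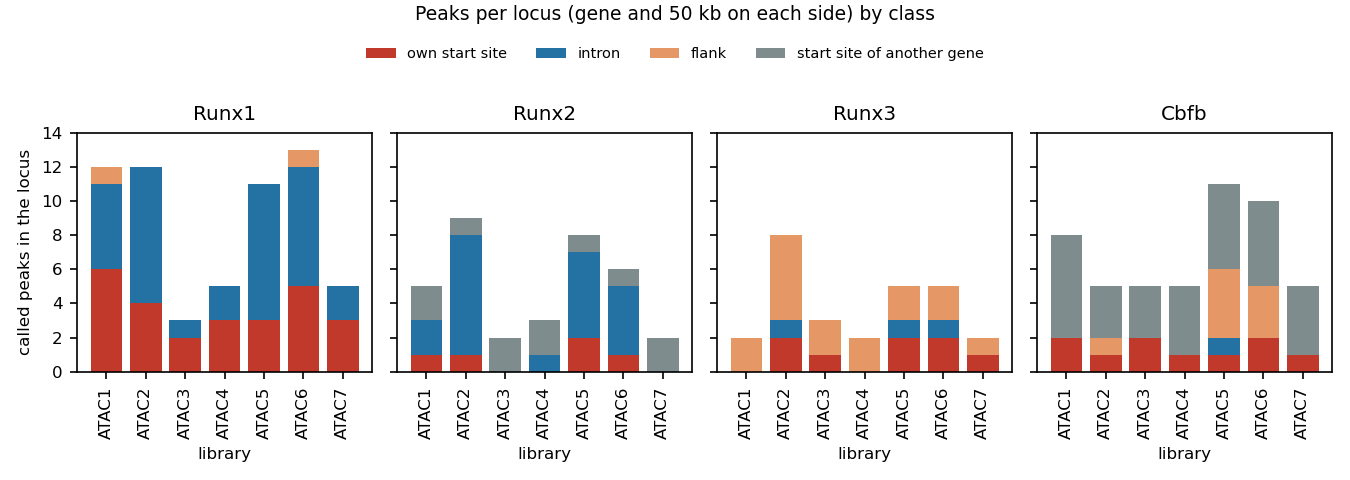
Called peaks (vertical axis) per library (horizontal axis) in each locus, stacked by class. The Runx1 locus has 3 peaks in ATAC3 and 13 in ATAC6, and most of the Cbfb peaks in grey are at starts of other genes.

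The number of peaks in the 4 loci followed the length of the lists. From ATAC1 to ATAC7 it was 27, 34, 13, 15, 35, 34 and 14, which is 0.811 (ATAC3) to 1.17 (ATAC6) per 1000 peaks of the list. With 15188 peaks kept of each list, it was 21, 10, 13, 15, 14, 17 and 14 in the same order. ATAC2, with the longest list, then had the fewest and ATAC1 the most. Per 100 kb of locus, Runx1 had 0.924 to 4.0 peaks and Runx2 0.478 to 2.15, where the median gene had 0.969 to 2.0. Runx1 was above the median in every library except ATAC3 (0.924 against 0.994), and Runx2 was below it in every library except ATAC2 (2.15 against 1.99). Cbfb, with 3.39 to 7.47, was above the median in all 7 libraries, and Runx3, with 1.27 to 5.08, in every library except ATAC1 (1.27 against 1.76).

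Overlapping peaks were merged into 61 regions in the 4 loci. Of these, 6 (9.84%) were called in all 7 libraries and 26 (42.6%) in 1, against 16.6% and 40.9% of all 50683 merged regions. The 6 regions were both promoters of Runx1, an intronic region of Runx1, a flanking region of Runx3, the start of Supt3h inside Runx2 and the start of D230025D16Rik beside Cbfb. Over 1000 bases from any start site there were 39 regions, of which 2 (5.13%) were called in all 7 libraries against 3.87% of all 29855 such regions. Of the 39, 27 (69.2%) were called in no library but the 3 with the longest lists, ATAC2, ATAC5 and ATAC6, and for all such regions this was 61.7%.

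**Figure D4:**
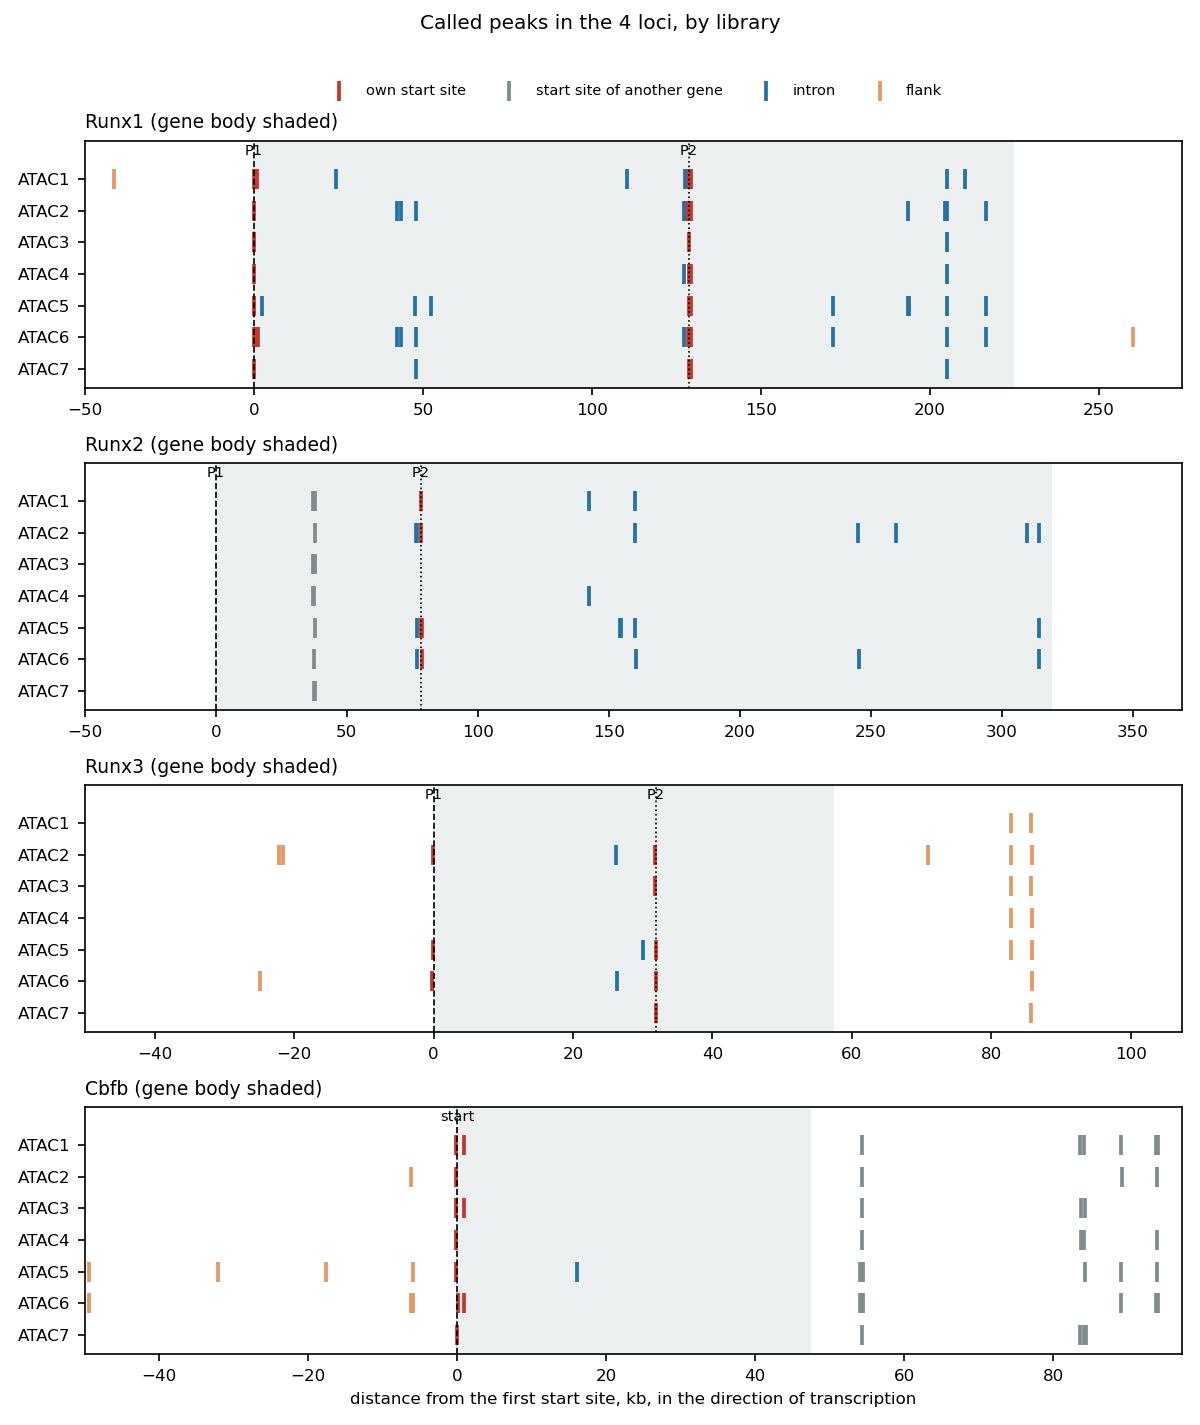
Position of each called peak (tick) along the 4 loci, in kb from the first start in the direction of transcription (horizontal axis), for each library (rows). Colour gives the class, the gene body is shaded and lines mark P1 and P2. The ticks at +205.0 kb in Runx1 and +85.7 kb in Runx3 form full columns of 7, and Runx2 P1 has no tick within 36 kb.

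For 5 of the Runx regions that at least 3 libraries shared away from start sites, 200 bases about the centre are printed, since the values that follow turn on them. They are printed from the plus strand of mm9. Capitals mark TGTGGT and the AP-1 motif TGANTCA on either strand. Positions in kb count from P1.
Runx1 +205.0, chr16:92621214-92621413: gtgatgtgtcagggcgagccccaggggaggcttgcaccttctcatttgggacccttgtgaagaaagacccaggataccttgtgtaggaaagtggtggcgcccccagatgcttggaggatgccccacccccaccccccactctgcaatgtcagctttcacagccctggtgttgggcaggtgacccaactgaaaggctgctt
Runx1 +47.9, chr16:92778351-92778550: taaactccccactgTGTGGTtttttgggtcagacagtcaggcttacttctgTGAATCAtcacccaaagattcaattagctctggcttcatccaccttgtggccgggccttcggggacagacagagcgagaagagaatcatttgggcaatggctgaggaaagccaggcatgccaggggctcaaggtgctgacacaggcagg
Runx2 +314.3, chr17:44637373-44637572: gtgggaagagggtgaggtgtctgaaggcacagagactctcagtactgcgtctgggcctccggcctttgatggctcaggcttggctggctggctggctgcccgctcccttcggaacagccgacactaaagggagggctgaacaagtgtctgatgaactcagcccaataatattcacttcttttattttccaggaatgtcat
Runx2 +160.1, chr17:44791510-44791709: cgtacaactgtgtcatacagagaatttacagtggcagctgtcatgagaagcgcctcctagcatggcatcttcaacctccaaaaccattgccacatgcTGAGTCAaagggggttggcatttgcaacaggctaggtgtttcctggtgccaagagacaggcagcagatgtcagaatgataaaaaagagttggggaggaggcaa
Runx3 +85.7, chr4:134762204-134762403: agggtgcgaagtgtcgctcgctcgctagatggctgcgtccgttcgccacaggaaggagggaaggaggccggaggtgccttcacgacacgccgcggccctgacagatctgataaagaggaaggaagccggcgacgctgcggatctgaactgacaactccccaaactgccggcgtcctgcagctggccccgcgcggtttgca
TGTGGT was found in 11 of the 39 regions away from start sites (28.2%) and TGANTCA in 9 (23.1%), against 22.9% and 23.5% of all such regions, so the loci held these letters about as often as other regions.

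The intron of Runx1 at +205.0 kb, chr16:92621116-92621511, was the only region away from a start site in the Runx1, Runx2 and Cbfb loci with a peak in all libraries. It lies 76.3 kb downstream of P2. From ATAC1 to ATAC7 it held 272, 173, 282, 101, 454, 297 and 131 reads, against 19 to 46 Input reads. Its relative density ran from -0.47 in ATAC4 to 0.10 in ATAC3, a difference of 0.57, close to that of Runx1 P2. It was also called in all 7 libraries when the lists had equal length. Further on, at +216.5 kb, chr16:92609585-92609950, lay the best-ranked other peak of ATAC2 and of ATAC5, with 114 and 128 reads, and ATAC6 had a peak there with 95.

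The stretch between P1 and P2 of Runx1, which is known to hold blood enhancers of the gene, had no region common to all libraries. A region at +47.9 kb, chr16:92778189-92778712, held 195 reads in ATAC2, 182 in ATAC5, 147 in ATAC6 and 55 in ATAC7. In ATAC7 it stood near the end of the list, within the first 94.6%. ATAC2 and ATAC6 also shared regions at +42.4 and +43.5 kb with 56 to 127 reads. A region at +24.4 kb, chr16:92801944-92801969, was called in ATAC1 alone, with 119 reads against 31 of Input. It was the best-ranked peak of ATAC1 in the Runx1 locus outside the start sites and the shared regions, in the first 45.7% of the list. Another region that only ATAC1 had lay 41.3 kb upstream of P1, with 113 reads against 10 of Input.

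In the 3 longest lists, the best-ranked intronic peaks of Runx2 itself lay at +314.3 kb, near the end of the gene, at chr17:44637290-44637654. They held 221 reads in ATAC2, 224 in ATAC5 and 143 in ATAC6, against 17, 14 and 13 Input reads. The fold over Input of the authors was 20.5 in ATAC2, 27.4 in ATAC5 and 17.3 in ATAC6, above the fold of 3.22 to 7.81 at Runx2 P2. A region 1.5 kb upstream of P2 had peaks in the same 3 libraries with 114 to 143 reads. At +160.1 kb, chr17:44791444-44791775, the peaks held 110 reads in ATAC1, 56 in ATAC2, 117 in ATAC5 and 65 in ATAC6. ATAC3 and ATAC7 had no peak in the Runx2 locus except at the start of Supt3h, and ATAC4 had 1, at +142.4 kb with 75 reads. A peak of ATAC1 with 119 reads lay next to it, at +142.3 kb. They shared no base and were therefore counted as separate regions.

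The start of Supt3h, chr17:44913728-44914542, was the strongest region in the Runx2 gene. From ATAC1 to ATAC7, its best-ranked peak held 531, 456, 329, 330, 843, 797 and 380 reads. It was in the first 6.99% of the ATAC6 list and the first 23.3% of the ATAC7 list. Its relative density lay between -0.04 in ATAC2 and 0.42 in ATAC5, a difference of 0.46. The region lies in an intron of Runx2 between P1 and P2, and counts over the gene body of Runx2 therefore include it.

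Past the end of Runx3, 2 regions had more libraries than its P1. The region 28.4 kb past the gene end, chr4:134762162-134762445, held 143, 57, 101, 59, 173, 106 and 86 reads from ATAC1 to ATAC7, against 21 to 37 Input reads. All 7 relative densities were below 0, from -1.05 in ATAC2 to -0.45 in ATAC5. When lists were of equal length, the region was not called in all 7 libraries. The region 25.5 kb past the gene end, chr4:134759252-134759514, held 47 to 102 reads in ATAC1 to ATAC5 and no peak in ATAC6 and ATAC7. ATAC1 and ATAC4, in which neither promoter of Runx3 had a peak, had both of these regions and no other peak in the locus. The best-ranked other peaks of Runx3 held 78 reads at -22.1 kb in ATAC2, 36 shortly before P2 in ATAC5 and 66 at +26.3 kb in ATAC6.

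The Cbfb locus had 1 peak inside the gene away from its start, at +16.1 kb in ATAC5 with 59 reads. Upstream, regions at -6.2 and -5.9 kb held 71 to 154 reads in 2 libraries each, among ATAC2, ATAC5 and ATAC6, and the other upstream regions held 32 to 104 reads in ATAC5 or ATAC6. The neighbouring starts made up most of the locus. At D230025D16Rik, 54.2 kb downstream, the best-ranked peak held 155 reads in ATAC7 to 460 in ATAC6. At B3gnt9-ps, a region at +83.7 kb was called in ATAC1, ATAC3, ATAC4 and ATAC7 and not in the 3 longest lists, with 80 to 183 reads. Beside it, at +84.3 kb, the same 4 libraries and ATAC5 had peaks of 387, 233, 127, 99 and 669 reads, in this order. At Tradd, the peaks at +89.1 to +89.3 kb held 109 reads in ATAC1, 62 in ATAC2, 116 in ATAC5 and 103 in ATAC6. The peaks at Tradd and Fbxl8, at +94.0 kb, held 63 to 177 reads in 5 libraries.

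**Figure D5:**
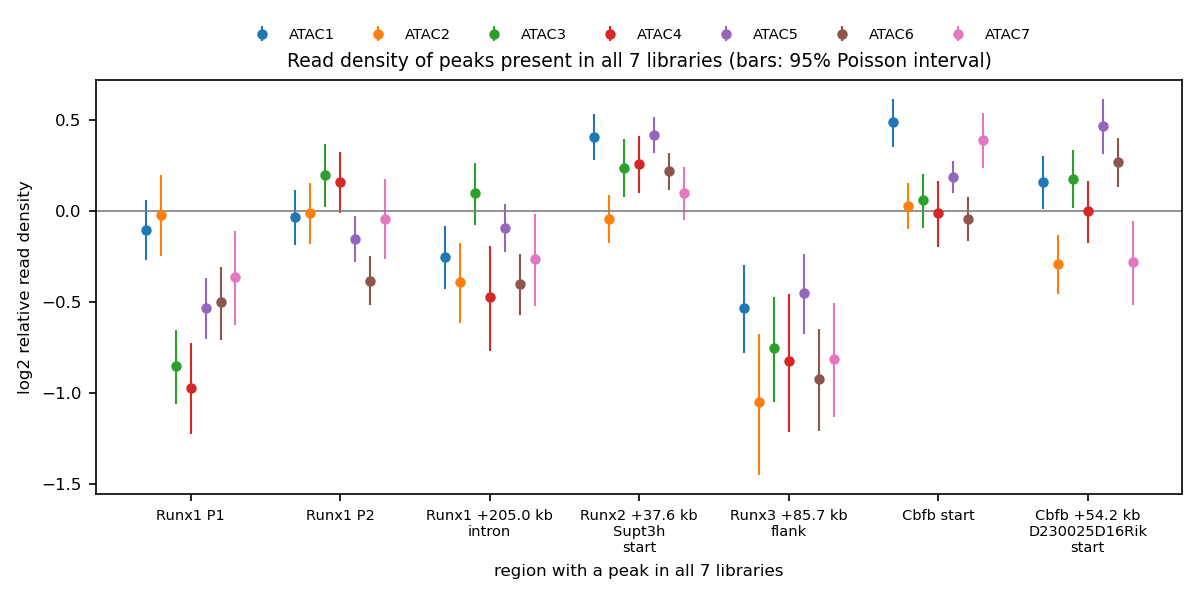
Log2 relative read density (vertical axis) of the best-ranked peak of each library at the 7 groups or regions with a peak in all 7 libraries (horizontal axis). Points are libraries, bars are 95% Poisson intervals of the reads, and 0 is the median of the regions called in all libraries. Runx1 P1 spreads from -0.97 to -0.02, the Supt3h start lies between -0.04 and 0.42, and the Runx3 flank lies between -1.05 and -0.45. The flank is lowest in ATAC1, ATAC2, ATAC6 and ATAC7, and Runx1 P1 is below it in ATAC3, ATAC4 and ATAC5.

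Beyond the family, genes that work with the Runx proteins or are regulated by them were counted by their start sites, as lists and without a test. Of 20 co-repressors and partners, 15 to 18 had a start-site peak in a library, 13 had one in all 7 libraries and 1, the histone deacetylase gene Hdac4, in none. Those open throughout included Tle1, Tle3 and Tle4, co-repressors that bind the C terminus of Runx proteins, and Cbfa2t2. The median member had a peak in 7 libraries, where the median protein-coding gene had one in 3, with 37.1% of these genes open in all 7 and 43.0% in none. Chosen after the values were seen, Tle2 was open in ATAC5 alone and Runx1t1 in 5 libraries.

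Of 20 skeletal regulators and targets, 6 to 12 had a start-site peak in a library, 4 had one in all 7 and 8 in none, with a median of 2.5 libraries. Over all protein-coding genes the median was 3, with 37.1% open in all 7 and 43.0% in none. Those open in all included Zfp521, Vegfa and Fgfr2. Sp7, the osteoblast factor that acts after Runx2, had none, nor had Dlx3 and the bone matrix genes Bglap and Ibsp. Of genes chosen after the values were seen, Dlx5, a regulator of Runx2, had a peak in ATAC2, ATAC5 and ATAC6, and Col1a1 in 6 libraries, all but ATAC4. Of other bone genes, Spp1 had one in ATAC1, ATAC2 and ATAC6, Alpl in ATAC5 and ATAC6, and Col1a2 in 4 libraries.

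Of 19 annotated haematopoietic partners and targets, 4 to 9 had a start-site peak in a library, 4 had one in all 7 and 9 in none, with a median of 1 library, where it was 3 over all genes, with 37.1% of them open in all 7 and 43.0% in none. Sfpi1, Itga2b, Cebpa and Zbtb7b were open in all. Csf1r and Mpo, targets of Runx1 in myeloid cells, had none, nor had Gata1 and Csf2. Again chosen after the values were seen, Tal1 had a peak in ATAC1, ATAC2, ATAC4, ATAC5 and ATAC6 and Gata2 in ATAC5 and ATAC6. A start site can be shared with a neighbouring gene, so a peak near it is not always that of the named gene.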

How the data were processed

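ATAC-seq reads of 7 libraries were aligned by the authors to mm9 with bowtie, and peaks were called per library against the 1 Input library by the two-sample mode of CisGenome (P limit 1e-05, FDR under 0.01). A read shift for Tn5 and a removal of duplicates are not given in the sources used here, and a shift would move peak edges slightly. The deposited tables have no header, and columns were identified from their values. They hold, per peak, its position and outer region, a non-negative signal that ranks it, the whole-number counts of library and Input reads in the outer region, and the authors' ratio of scaled library reads to Input reads plus 0.01. A score-like position column of the deposited tables and the separate lists of coordinates were not used, and Input was not analysed on its own.

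Start sites were read from GENCODE vM1. P1 is the first coding start-site group and P2 the proximal one before the shared exons. Regions were named where they lay at a start site, were called in at least 4 libraries or gave the best-ranked other peak of a locus in a library, and others in the Runx1, Runx2 and Cbfb loci were chosen after their values were seen. For likeness, the 3 genes with the highest r were named, and up to 4 genes per list open in all libraries, by list order. Others are said to be chosen after their values were seen, and markers without a peak are named. Some listed genes and 1 promoter sequence are not reported here. The members and lists were chosen with earlier results of these data known. No test was made, since each title has 1 library. Intervals are exact Poisson (95%) and cover counting error only, as PCR reads without molecular identifiers are not independent molecules. Peak matching was tested on simulated data and recovered 100.0% of 200 planted peaks among 28871 groups. All were planted inside the search window, so this checks the matching rule and not detection in the real lists. Alternatives were the window, the flank, a fold minimum, equal list length, merging distance, other genes' starts and the density measure. Software was matplotlib 3.10.9, scipy 1.17.1, pandas 2.3.3 and numpy 2.4.6 under Python 3.11.15.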

Additional observations from a re-analysis of the deposited data

How the results depend on the processing

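No paired analysis was possible because no title has more than 1 library, and no replicate could be left out. Of 76 alternative values, 59 stayed within 1.5 times the main count or within counting error, and 17 moved. The values are counts or differences of the highest and lowest library, so they have no direction that could turn. With lists of equal length (15188 peaks), peaks were found at Runx2 P2 in 0 libraries, at Runx3 P1 in 1 and at Runx3 P2 in 3, the loci held 36 peaks (Runx1), 18 (Runx2) and 13 (Runx3), and Runx3 had 0 regions common to all. Limited to peaks of a fold of 5 or more, Runx2 P2 had a peak in 1 library (ATAC5) and Runx3 P2 in 2 (ATAC5 and ATAC6), and the Runx3 and Cbfb loci held 15 and 28 peaks. A flank of 25 kb gave 15 peaks for Runx3 and 25 for Cbfb, and one of 100 kb gave 48 and 79. Without starts of other genes, Cbfb had 19 peaks. Merging within 500 bases gave Cbfb 2 regions common to all. Runx1 P1, Runx1 P2 and Cbfb kept 7 libraries in each setting except that Cbfb lost ATAC4 at that fold, and Runx2 P1 stayed at 0. The start-site counts did not change with a window of 500 or 2000 bases. Depth outside peaks is unknown, so how far a missing peak reflects depth was not tested.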
